A study of Mus musculus with 9 samples.

Results

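Of 2871947 StyI fragments on chromosomes 1 to 19 of the mouse genome (mm9), 262 had a mean input level of 3 CPM or more and are described here. CPM is the count of a fragment scaled by the total count of its library. The fragments were chosen by the mean over 3 libraries of unfractionated input DNA, so their input levels are a description and were not tested. They made up 0.00912% of the fragments and 0.00794% of the length of these chromosomes. The DNA came from E14Tg2a cells, embryonic stem cells of the 129P2 strain that were cultured with LIF. In the assay, nuclei are extracted with high salt, StyI, a restriction enzyme, cuts the DNA, and the DNA that stays with the insoluble nuclear material is separated from the DNA that is released. The series holds 3 libraries of the retained DNA (high-salt recovered sequences, HRS), 3 of the released DNA (Loop) and 3 of genomic input, whose titles D0, D12 and D21 are not explained in the labels. All 9 libraries carry the same strain and cell line labels. Whether the replicates were grown separately is not stated, so the p-values speak of the spread between these libraries only, which may be technical.

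As background, mouse chromosomes carry tandem arrays and dispersed families of near-identical sequence, such as satellite DNA next to the centromeres, ribosomal RNA gene arrays, retroelements and recently duplicated gene families. Where an assembly holds fewer copies of a sequence than the cells do, reads of all copies are placed on the few that are there. The tags of this assay are short ends of StyI fragments, which limits how many copies can be told apart. Copy number was not measured here, and several copies in the cells and several mapping places for 1 tag cannot be told apart in a count. The genome build of the files was not used as sequence or annotation, so the fragments are given by mm9 position and length, as the files write them, and not by gene or repeat name.

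The input levels of the 262 fragments ran from 3.01 to 78.4 CPM with a median of 5.32 CPM, against a median of 0.305 CPM over all fragments of chromosomes 1 to 19. The median fragment of the 262 stood 17.4 times above the median of all fragments, with a range of 9.89 to 257 times. Of the 262, 135 reached 5 CPM, 69 reached 10 CPM, 22 reached 20 CPM and 6 reached 50 CPM. The limit cut through a continuous range. Just above it lay chr5:50329753-50331191 (3.01 CPM), chr1:97375902-97376303 (3.02 CPM) and chr10:22006425-22006753 (3.03 CPM). Just below it lay chr14:52312582-52312766, chr3:77459004-77459138 and chr5:26397644-26397689, at 2.999, 2.99 and 2.988 CPM. The levels were well counted, since no library had fewer than 19 counts at any of the 262 and the median count in an input library was 300.

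The 262 fragments took 0.353% ± 0.0342 (SD, n = 3) of the HRS counts, 0.26% ± 0.0302 (SD, n = 3) of the Loop counts and 0.238% ± 0.00843 (SD, n = 3) of the input counts. The shares were 0.367%, 0.315% and 0.379% in HRS replicates 1, 2 and 3, then 0.236%, 0.25% and 0.294% in the Loop replicates, and 0.23%, 0.237% and 0.246% in the D0, D12 and D21 inputs. Each HRS share lay above each Loop and each input share, while the Loop and input shares overlapped. Few fragments held a large part of the HRS excess. The 5 of highest input alone took 0.107%, 0.077% and 0.103% of the counts in HRS replicates 1, 2 and 3. They took 0.0416%, 0.0539% and 0.0416% in the Loop replicates and 0.0321%, 0.039% and 0.036% in the D0, D12 and D21 inputs. Library totals were 39.1 to 52.5 M counts for HRS, 58.7 to 62.9 M for Loop and 55.2 to 62.2 M for input.

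Replicates agreed closely on these fragments in input and HRS, and less closely in Loop. The median coefficient of variation over 3 libraries was 16.6% in HRS, 27.8% in Loop and 11.4% in input. Loop replicate 3 stood apart. Its log2 CPM correlated at 0.845 and 0.857 with Loop replicates 1 and 2 over the 262 fragments, while those correlated at 0.973 with each other. Loop replicate 3 was the highest of the Loop libraries at 150 fragments and the lowest at 85. Outside a stretch of chromosome 11 described next, its median log2 ratio over input was 0.57, against -0.27 and -0.30 in the other Loop replicates. The main counts of calls, those by length, and the main counts and medians relative to input over the 262 fragments are therefore also given without Loop replicate 3. Calls of HRS against Loop over 2-fold, with length corrected, and inside and outside that stretch are given only with it.

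**Figure D1:**
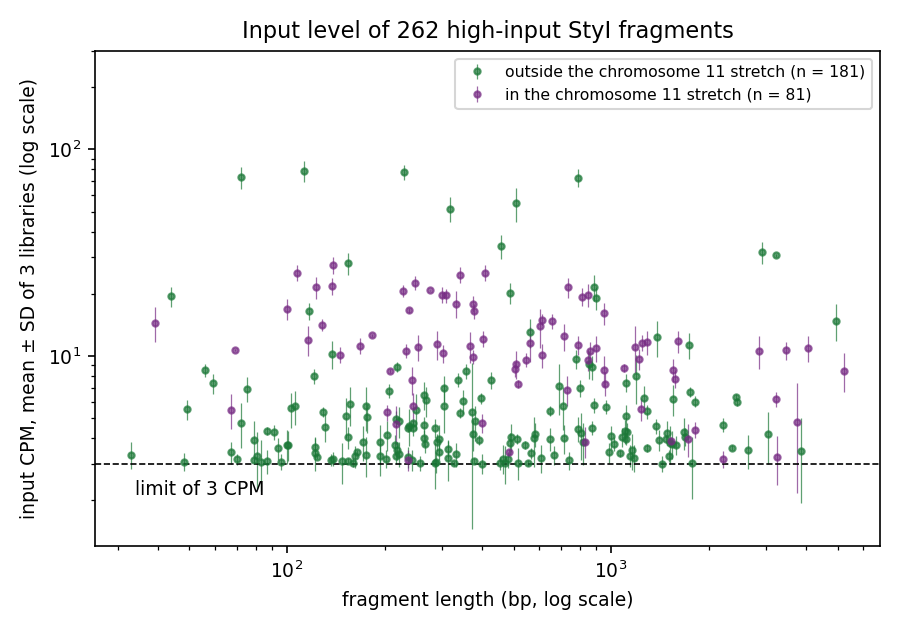
Input level of the 262 fragments (mean ± SD of 3 input libraries, CPM, log scale) against fragment length (bp, log scale), with the 81 fragments of the chromosome 11 stretch apart from the other 181. High input levels occur over the whole range of lengths from 33 to 5238 bp, and the stretch has a median of 10.9 CPM against 4.16 CPM outside it.

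Length separated the 262 fragments little from the rest of the genome. Their median length was 394 bp against 537 bp over all fragments of chromosomes 1 to 19. The shortest measured 33 bp (chr13:68582493-68582526) and the longest 5238 bp (chr11:3067809-3073047). Fragments over 200 and up to 500 bp were the largest class, with 31.7% of the 262 against 24.3% of all fragments. The class over 100 and up to 200 bp held 14.5% against 10.9%, and the class of up to 100 bp held 9.54% against 12.6%. Fragments over 2000 bp made up 6.87% of the 262 and 9.47% of all. Outside the chromosome 11 stretch 158 lengths occurred once and 11 lengths were shared by 2 or 3 fragments, 23 fragments in all.

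Position separated them strongly. Chromosome 11 held 90 of the 262, and 81 of these lay in 1 stretch of 81.7 kb, chr11:3021983-3103661, near the centromeric start of the chromosome. Without that stretch chromosome 11 had 5.82 per 100000 fragments, within the range of the other chromosomes, which ran from 2.46 on chromosome 15 to 11.4 on chromosome 17. The first 2 Mb of the assembled chromosomes held 33.2% of the 262, against 1.61% of all fragments, and 3.31% (6 of 181) once the stretch was set aside. The last 2 Mb held none of the 262, against 1.68% of all fragments. The 6 early fragments outside the stretch lay on chromosomes 4 (2 fragments), 9, 14, 17 and 18.

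Joining fragments no more than 10 kb apart gave 162 groups, of which 151 were single fragments. The other 111 fragments lay in 11 groups, namely 1 of 81 fragments, 1 of 5, 3 of 4, 1 of 3 and 5 of 2. A high-input fragment was often next to one that no library counted. Outside the stretch, 46.4% of the 181 fragments had at least 1 adjoining fragment without a count in any of the 9 libraries, and 17.1% had this on both sides. Over all fragments of chromosomes 1 to 19 these shares were 22.9% and 7.66%.

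The stretch at chr11:3021983-3103661 was the largest block of high-input sequence. It spans 107 fragments, of which 81 reached 3 CPM. Of the other 26, 15 were under 0.05 CPM in input, and these include 11 that were never counted. The highest of the 26 had 2.09 CPM. The 20 fragments on either side reached at most 1.17 CPM on the lower side and 1.16 CPM on the upper side, with medians of 0 and 0.353 CPM. By the rule of joining, fragments within 10 kb of the stretch are under 3 CPM. Inside the lower edge, the first fragment had 10.3 CPM, and the next to reach 3 CPM began 5.16 kb from the start. The 81 fragments ran from 3.15 CPM (chr11:3031751-3031987) to 27.5 CPM (chr11:3061399-3061538), with a median of 10.9 CPM. This was a median of 33 times the input median of fragments of similar length (20 length classes), with a range of 9.22 to 69.8 over the 80 fragments whose length class has a median above 0.

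The sum over the 81 fragments was 1000.8, 1045 and 1141 CPM in HRS replicates 1, 2 and 3. It was 901, 834 and 942 CPM in the Loop replicates and 947, 880 and 1056 CPM in the D0, D12 and D21 inputs. The means were 1062 ± 71.7 CPM in HRS, 892 ± 54.4 CPM in Loop and 961 ± 89 CPM in input (SD, n = 3 each). Every HRS sum lay above every Loop sum, and the HRS and the Loop sums each overlapped the range of the inputs. These sums rest on library totals. On that scaling the median log2 ratio of HRS over Loop was 0.24 over all fragments tested in the comparison below, so HRS above Loop is not particular to the stretch. D21 was the highest input at 65 of the 81 fragments and D0 at 15, and replicate 3 was the highest library of the summed values in both fractions.

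**Figure D2:**
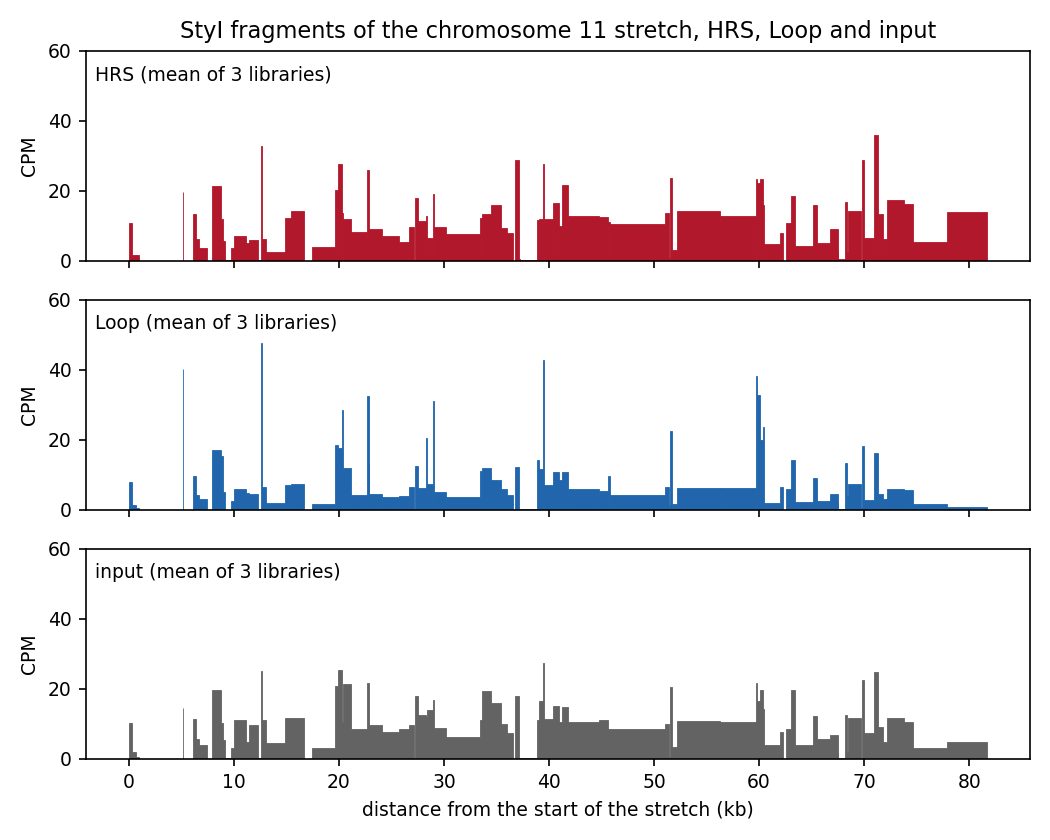
Mean CPM of 3 libraries for each of the 107 StyI fragments of the chromosome 11 stretch, against distance from its start (kb), in HRS (top), Loop (middle) and input (bottom), with bars as wide as the fragments. The profiles are alike in where fragments are high, and Loop is low on the wide bars (fragments over 1000 bp, median 4.21 CPM) and high on the narrow ones (up to 200 bp, median 28.5 CPM).

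Within the stretch the fractions differed along the length of the fragments. The 13 fragments of up to 200 bp had a median of 16.8 CPM in HRS, 28.5 CPM in Loop and 14.2 CPM in input. The 20 fragments over 1000 bp had a median of 8.65 CPM in HRS, 4.21 CPM in Loop and 8.55 CPM in input. Loop lay above input at all 13 short fragments and below input at all 20 long ones. Across the 81 fragments the log2 ratio of Loop over input had a Spearman correlation of -0.86 with length, and that of HRS over input had -0.07. Loop also fell with length outside the stretch, though less closely, with a correlation of -0.50 over 181 fragments, where HRS had 0.19. The points of both sets share their libraries, and no p is given. In the comparison of HRS with Loop below, 53.6% of all tested fragments of up to 200 bp were higher in Loop, against 1.23% of longer ones. The pattern is therefore not particular to the stretch. Shares of all fragments above or below input were not computed by length.

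In the comparison of HRS with Loop, which asks what was retained rather than released and which the choice of fragments did not use, 53 of the 262 fragments rose in HRS and 58 rose in Loop (edgeR quasi-likelihood test, adjusted p under 0.05 over 1744841 fragments). All 262 passed the filter on low counts. Of all fragments tested, 7.78% passed as higher in HRS and 15.0% as higher in Loop, against 20.2% and 22.1% of the 262, whose counts were far above those of most fragments. Among the 67522 fragments of chromosomes 1 to 19 at 1 to 3 input CPM the shares were 6.23% and 32.0%. The median log2 ratio of HRS over Loop was -0.04 over the 262 and 0.02 over all fragments tested, and on library totals 0.19 and 0.24. Calls over 2-fold numbered 24 in HRS and 39 in Loop, or 9.16% and 14.9% of the 262, against 7.60% and 14.2% of all fragments tested. Without any fit, all HRS libraries lay above all Loop libraries in CPM at 87 fragments, against 22.4% of the fragments tested on chromosomes 1 to 19, and all Loop above all HRS at 52, against 16.2%. Without Loop replicate 3 these counts were 140 and 56, against 26.8% and 19.1%.

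These counts leaned on Loop replicate 3, without which 23 fragments were called for HRS and 32 for Loop, all of them among the calls above. These are 8.78% and 12.2% of the 262, against 5.54% and 10.6% of all fragments in that fit. The median log2 ratio was then 0.29 over the 262 and 0.08 over all fragments in that fit. Without Loop replicate 2, 35 were called for HRS and 59 for Loop, against 103027 and 233122 of all 1906192 fragments in that fit. The counts also leaned on length. With fragment length corrected, 34 were called for HRS and 32 for Loop, against 4.22% and 1.40% of all fragments tested, and 10.8% and 4.06% of those at 1 to 3 input CPM. Of the uncorrected calls 24 in HRS and 27 in Loop were made again, and none turned round. Outside the chromosome 11 stretch 27 of 181 were called for HRS and 48 for Loop, or 25 and 29 with length corrected. In the stretch 26 of 81 were called for HRS and 10 for Loop, or 9 and 3 with length corrected.

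The direction followed length. Of the 63 fragments of up to 200 bp, 2 were higher in HRS and 40 in Loop (3.17% and 63.5%), against 0.494% and 53.6% of all tested fragments of these lengths on chromosomes 1 to 19. Of the 199 longer ones, 51 were higher in HRS and 18 in Loop (25.6% and 9.05%), against 10.4% and 1.23%. Among tested fragments at 1 to 3 input CPM, the HRS and Loop shares over 500 and up to 1000 bp were 25% and 2.23%. The high-input fragments of these lengths had 25.9% and 7.41%. Over 1000 and up to 2000 bp the shares were 24.9% and 5.62%, where the high-input fragments had 25% and 11.4%. Over 200 and up to 500 bp they were 9.69% and 4.96%, where the high-input fragments had 14.5% and 10.8%. Among the 18 over 2000 bp, 14 were higher in HRS and none in Loop, where 17.9% and 0.456% of all tested fragments of that length on chromosomes 1 to 19 were called. Of the 154 such fragments at 1 to 3 input CPM, 20.1% and 9.09% were called. With length corrected 5 of the 18 were higher in HRS and none in Loop, against 3.74% and 1.04% of all tested fragments of that length. At 1 to 3 input CPM the corrected shares were 11% in HRS and 22.7% in Loop. Several of the 18 lie in the chromosome 11 stretch and are not separate places. In that stretch 15 of the 20 fragments over 1000 bp were called for HRS. Of all tested fragments over 1000 and up to 2000 bp 14.1% were called for HRS, and of those over 2000 bp 17.9%. At 1 to 3 input CPM these shares were 24.9% and 20.1%. The 20 fragments had a median log2 ratio of HRS over Loop of 0.81, and of 0.24 with length corrected. Their calls with length corrected or without Loop replicate 3 were not counted. Without Loop replicate 3, 1 and 25 of the 63 short fragments were called for HRS and Loop (against 0.934% and 41.9%), 22 and 7 of the 199 longer ones (against 7.02% and 0.675%), and 5 and 0 of the 18 over 2000 bp (against 8.66% and 0.418%). In the stretch the log2 ratio had a Spearman correlation of 0.77 with length over 81 fragments, and 0.17 after the correction.

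**Figure D3:**
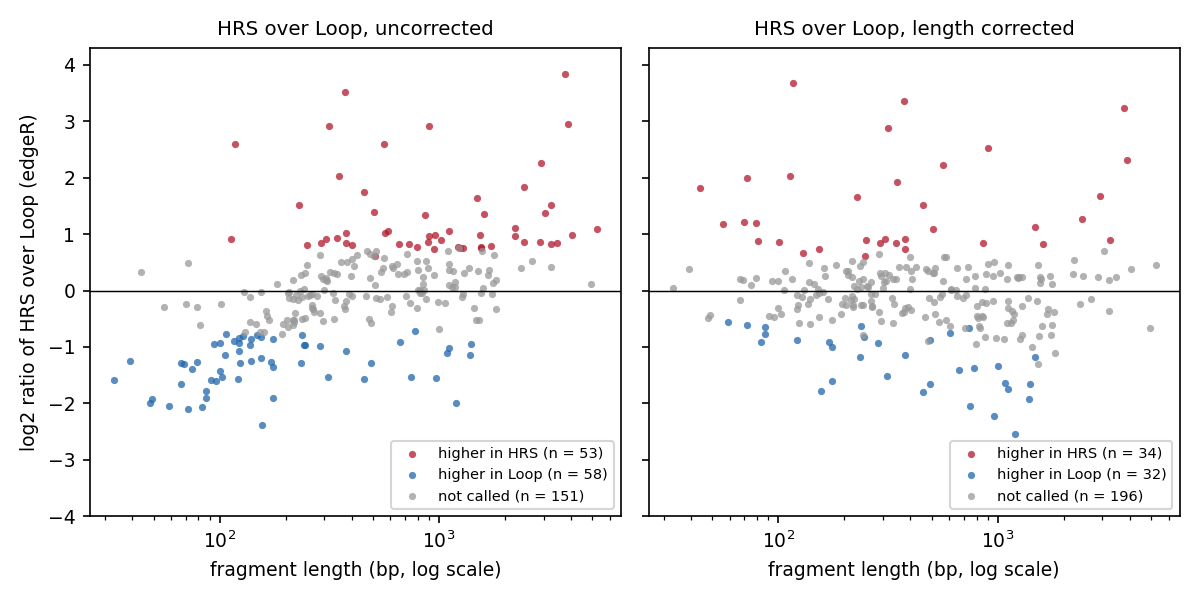
The log2 ratio of HRS over Loop from the edgeR fits against fragment length (bp, log scale) for the 262 fragments, without (left) and with (right) the length correction, coloured by the call at an adjusted p under 0.05. Without the correction 40 of 63 fragments up to 200 bp are called for Loop, where 53.6% of all tested fragments of these lengths are. Over 2000 bp 14 of 18 are called for HRS, where 17.9% are, and several of the 18 lie in the chromosome 11 stretch. With the correction, short and long fragments are found among both the 34 calls for HRS and the 32 for Loop. None over 2000 bp is among those for Loop.

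The highest input levels were on chromosome 17, in a group of 4 fragments between 39979448 and 39983768. The other fragment of that span was under 0.05 CPM in input. The 4 fragments summed to 836, 612 and 787 CPM in HRS replicates 1, 2 and 3, to 290, 373 and 307 CPM in the Loop replicates and to 228, 278 and 240 CPM in the D0, D12 and D21 inputs. Each HRS sum was above each Loop sum, and each Loop sum was above each input sum. Together the 4 fragments averaged 745 ± 117 CPM in HRS, 323 ± 43.6 CPM in Loop and 248 ± 25.9 CPM in input (SD, n = 3 each).

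The fragments of the group differed from each other in Loop and less in HRS relative to input. The one of 113 bp (chr17:39980577-39980690) had 263, 176 and 280 CPM in HRS, 95.7, 121 and 111 CPM in Loop and 70.4, 88 and 76.9 CPM in input. The one of 900 bp (chr17:39979448-39980348) had 47, 49.5 and 30.9 CPM in HRS, 5.18, 7.85 and 1.4 CPM in Loop and 16.5, 21.2 and 19.5 CPM in input. HRS was thus above input at both, while Loop was above input at the short and below it at the long fragment, with no overlap between any of the groups. HRS exceeded Loop by 0.91 ± 0.21 on the log2 scale (SE, edgeR adjusted p 0.000785) at the fragment of 113 bp and by 2.92 ± 0.32 (adjusted p 6.59e-10) at that of 900 bp. Without Loop replicate 3 the first of these had a log2 ratio of 1.00 and an adjusted p of 0.203. The fragment of 229 bp (chr17:39980348-39980577) averaged 238 ± 48.5 CPM in HRS, 71.5 ± 14.4 CPM in Loop and 77.6 ± 6.46 CPM in input (SD, n = 3 each). Its log2 ratio of HRS over Loop was 1.51 (adjusted p 7.24e-07 by edgeR), and 1.71 with an adjusted p of 0.146 without both libraries of replicate 3. The fragment of 72 bp (chr17:39983696-39983768) averaged 225 ± 23.4 CPM in HRS, 138 ± 41.4 CPM in Loop and 73.3 ± 8.95 CPM in input, and its log2 ratio of 0.48 missed the threshold (adjusted p 0.0889 by edgeR), while with length corrected it was 2.001 (adjusted p 5.23e-09). The uncorrected result of the fragment of 72 bp turned on scaling and on single libraries. Its adjusted p was 0.00018 on library totals. Its adjusted p was under 0.05 without HRS replicate 1 (0.0437), 2 (0.0241) or 3 (0.0218) or without Loop replicate 2 (0.011), but 0.0605 without Loop replicate 1, 0.671 without Loop replicate 3 and 0.859 without both libraries of replicate 3.

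Other single fragments of very high input behaved in several ways. The fragment chr18:17923990-17924446 (456 bp) had 214, 163 and 197 CPM in HRS, 45.5, 42.3 and 58.8 CPM in Loop and 32.9, 39 and 30.2 CPM in input. It was the fragment raised most over input in HRS, 5.62-fold, and all 3 groups were apart. HRS exceeded Loop by 1.74 ± 0.22 on the log2 scale (SE), with an adjusted p of 5.67e-08 by edgeR, and by 1.92 with an adjusted p of 0.0672 without both libraries of replicate 3. The fragment chr15:74915504-74916014 (510 bp) had 214, 151 and 190 CPM in HRS, 92.7, 139 and 79 CPM in Loop and 44.9, 54.5 and 65.2 CPM in input. Both fractions lay above input there, and the call of higher HRS (log2 ratio 0.61, adjusted p 0.033 by edgeR) was lost with length corrected (adjusted p 0.286) and without Loop replicate 3 (adjusted p 0.558).

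By contrast, chr12:56880669-56881459 (790 bp) had 68.8, 56.9 and 81 CPM in HRS, 38.3, 34.9 and 31.2 CPM in Loop and 64.9, 79.6 and 74.4 CPM in input. HRS overlapped input, and Loop lay below both. Its log2 ratio of HRS over Loop was 0.77 (adjusted p 0.00958 by edgeR), with an adjusted p of 0.413 when length was corrected and of 0.262 without Loop replicate 3. The fragment chr18:3003014-3005927 (2913 bp) lies at the start of the assembled chromosome and had 87.8, 76.7 and 50.9 CPM in HRS, 15.1, 17.9 and 5.57 CPM in Loop and 29.7, 29.5 and 36.1 CPM in input. HRS was above and Loop below input in every library, and HRS exceeded Loop by 2.26 ± 0.28 on the log2 scale (SE), with an adjusted p of 2.08e-08 by edgeR.

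The other 3 of the 10 highest were not called. The fragment chr3:74641749-74642068 (319 bp) had 73.5, 60.2 and 85 CPM in HRS, 37.6, 30 and 80.3 CPM in Loop and 53.4, 58 and 43.7 CPM in input. Each HRS library was above each input, and Loop overlapped both, with Loop replicate 3 far above the other Loop libraries. Both fragments of chromosome 9 overlapped between all groups. Those of 3223 bp (chr9:38714825-38718048) and 154 bp (chr9:39905090-39905244) averaged 38.3 ± 7.5 and 30.2 ± 5.21 CPM in HRS, 24.5 ± 7.04 and 26 ± 12.4 CPM in Loop and 30.7 ± 0.568 and 28.1 ± 3.31 CPM in input (SD, n = 3 each). The adjusted p of the 3 fragments was 0.382, 0.253 and 0.971 (edgeR). Scaling on library totals called the first and the second (adjusted p 0.03 and 0.00975), and with length corrected the one of 154 bp was called higher in HRS (log2 ratio 0.74, adjusted p 0.0101).

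**Figure D4:**
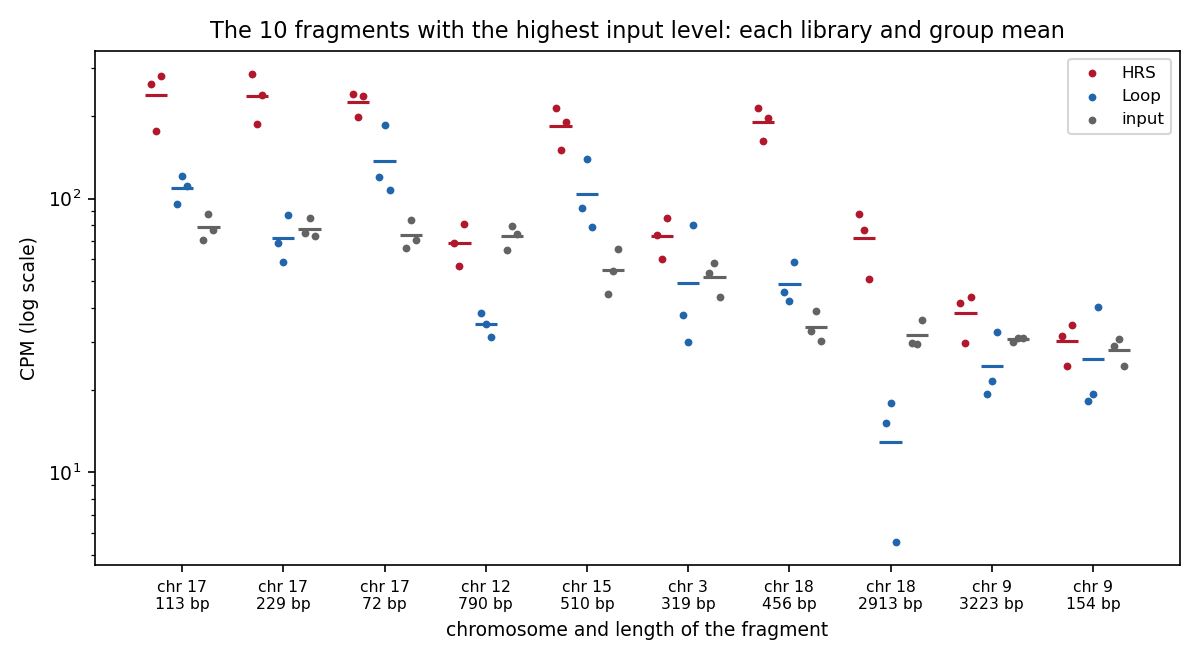
CPM (log scale) of the 10 fragments with the highest mean input level in each HRS, Loop and input library (points) with the group mean (line), ordered by input level and labelled by chromosome and length. The mean is highest in HRS at each of them except that of chromosome 12, where HRS overlaps input, and at the fragments of chromosomes 3 and 9 the libraries of HRS and Loop overlap.

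The fragments with the largest excess of HRS over Loop came from different chromosomes. On chromosome 11, chr11:3099909-3103661 (3752 bp), the last fragment of the stretch, had 13, 11.9 and 16.7 CPM in HRS, 1.13, 0.906 and 0.494 CPM in Loop and 2.48, 4.29 and 7.64 CPM in input, a log2 ratio of HRS over Loop of 3.83 ± 0.32 (SE, adjusted p 3.52e-14 by edgeR). On chromosome 2, chr2:98500469-98500842 (373 bp) had 18.2, 15.2 and 18.5 CPM in HRS, 1.67, 1.72 and 0.545 CPM in Loop and 2.36, 3.92 and 9.76 CPM in input, a log2 ratio of 3.51 ± 0.32 (SE, adjusted p 1.12e-12 by edgeR). At both, every HRS library was above every input and every Loop library below every input, and D21 was the highest input. These 2 fragments and chr2:124928356-124932221 (3865 bp, log2 ratio 2.95, inputs 1.85, 3.68 and 4.91 CPM) were the 3 with the widest spread of inputs, the highest being 3.09, 4.13 and 2.65 times the lowest, while the median over the 262 was 1.25 times.

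The next in order also were low in Loop. The fragment chr3:68114907-68115222 (315 bp) averaged 8.69 ± 1.04 CPM in HRS, 1 ± 0.355 CPM in Loop and 3.21 ± 0.728 CPM in input (SD, n = 3 each). The fragment chr10:21862217-21862781 (564 bp) averaged 47.3 ± 12.6 CPM in HRS, 6.77 ± 2.55 CPM in Loop and 13 ± 2.1 CPM in input. The fragment chr3:8245250-8245367 (117 bp) averaged 45.3 ± 16.4 CPM in HRS, 6.47 ± 2.69 CPM in Loop and 16.6 ± 1.6 CPM in input. The last of these is short, and with length corrected its log2 ratio of HRS over Loop was 3.68, against 2.59 without the correction. Further named fragments were chr9:3258525-3258874 (349 bp, log2 ratio 2.03) and chr7:7252229-7254658 (2429 bp, log2 ratio 1.83). All 10 with the largest excess of HRS, counting those of chromosomes 17 and 18 above, were also called with length corrected (log2 ratios of 1.26 to 3.68) and without Loop replicate 3.

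The largest excess of Loop was smaller. The fragment chr10:57687587-57687743 (156 bp) had 2.81, 3.18 and 3.28 CPM in HRS, 13.7, 16.5 and 11.5 CPM in Loop and 5.57, 4.77 and 7.19 CPM in input, with no overlap between groups and a log2 ratio of HRS over Loop of -2.39 ± 0.29 (SE, adjusted p 1.12e-08 by edgeR). With length corrected this was -1.78. The only long fragment among the 10 was chr15:78582301-78583497 (1196 bp), with 4.64, 6.12 and 5.58 CPM in HRS, 17.3, 22.7 and 15.8 CPM in Loop and 6.84, 6.68 and 10.5 CPM in input. Its log2 ratio was -2.00 ± 0.27 (SE, adjusted p 3.31e-07 by edgeR) and -2.55 with length corrected, the most negative of the 10 after the correction.

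The other 8 measured 48 to 175 bp. They were chr11:116636388-116636460, chr13:12898885-12898968, chr2:55640397-55640456, chr1:173489514-173489562, chr1:9535928-9536103, chr1:173444073-173444160, chr3:93617956-93618023 and chr11:116603855-116603951, with log2 ratios of HRS over Loop of -2.10 to -1.61. After the length correction they ran from -1.61 to -0.17, and the fragments of 48, 67 and 96 bp were no longer called (adjusted p 0.156, 0.646 and 0.135 by edgeR). The fragment of 175 bp (chr1:9535928-9536103) kept the most of its difference, with 1.4, 2.17 and 2.07 CPM in HRS, 5.25, 6.66 and 6.03 CPM in Loop and 3.51, 2.53 and 3.97 CPM in input.

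The smaller groups differed in their levels. At chr11:116603855-116618686 the 5 fragments summed to 18.5 ± 1.56 CPM in HRS, 32.9 ± 4.16 CPM in Loop and 19 ± 0.871 CPM in input (SD, n = 3 each), and 3 were called higher in Loop. At chr11:116634833-116636460 the 3 adjoining fragments summed to 11.5 ± 0.803 CPM in HRS, 32.3 ± 4.46 CPM in Loop and 13.6 ± 1.93 CPM in input, and 2 were called higher in Loop. At chr8:19982005-19993386 the 4 fragments summed to 31.6 ± 6.93 CPM in HRS, 26.4 ± 5.17 CPM in Loop and 27.6 ± 3.15 CPM in input, none was called, and 12 of the 13 fragments between them were never counted. At chr4:146785229-146805967 the 4 fragments summed to 15.3 ± 1.25 CPM in HRS, 14.4 ± 0.703 CPM in Loop and 14.6 ± 2.35 CPM in input, 1 was called higher in Loop, and 14 of the 26 fragments between them were never counted. In the 5 groups of 2 fragments the input sums ran from 6.18 to 8.02 CPM.

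Relative to input, HRS was slightly and Loop was variably changed over the 262 fragments. Since input chose the fragments, these ratios share values with the choice and are given as a description with no test. The median log2 ratio was 0.12 for HRS, with -0.06 over all fragments of chromosomes 1 to 19 that passed the filter, and -0.12 for Loop, with -0.37 over all. TMM scaling raised both Loop values, to 0.30 over the 262 and -0.02 over all, and both HRS values, to 0.24 and 0.05. The sign for Loop and the order of HRS and Loop over the 262 therefore depend on the scaling. When 1 input chose the fragments and the other inputs gave the ratio, the HRS median was 0.12 to 0.16 and the Loop median -0.15 to -0.04. Single fragments ran from 0.406-fold to 5.62-fold in HRS and from 0.175-fold to 3.18-fold in Loop. The median in each HRS replicate was 0.09, -0.02 and 0.30, and in each Loop replicate -0.32, -0.40 and 0.23. Without Loop replicate 3 the Loop median was -0.35.

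All HRS libraries were above all inputs at 68 fragments, where 12.5% of the fragments tested on chromosomes 1 to 19 were, and below all inputs at 39, against 14.2%. All Loop libraries were above all inputs at 66, against 17.5%, and below all inputs at 95, against 30.6%. As shares of the 262 these counts are 26%, 14.9%, 25.2% and 36.3%. The mean lay above input in HRS and below it in Loop at 88 fragments, below it in HRS and above it in Loop at 37, above it in both at 79 and below it in both at 58. These are 33.6%, 14.1%, 30.2% and 22.1% of the 262, against 26.9%, 14.2%, 18.7% and 40.1% of the fragments tested. At 29 fragments (11.1%, against 2.87%) all HRS libraries were above and all Loop libraries below every input. At the limit of 2-fold, 18 fragments were higher and 3 lower in HRS than in input, against 3.99% and 3.74% of the fragments tested, and 28 were higher and 28 lower in Loop, against 11.2% and 10.3%. Loop replicate 3 alone had 58 and 63 fragments beyond 2-fold higher and lower than input, against 19 and 11 in Loop replicate 1 and 31 and 22 in Loop replicate 2. Without Loop replicate 3, the Loop libraries were above all inputs at 66 fragments (against 18.7%) and below all inputs at 150 (against 36.4%), and 27 and 12 were 2-fold or more higher and lower (against 10.7% and 6.32%). The 4 patterns of means then counted 117, 27, 50 and 68, against 28.3%, 12.5%, 17.4% and 41.8%, and HRS above with Loop below every input held at 37, against 3.55%.

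**Figure D5:**
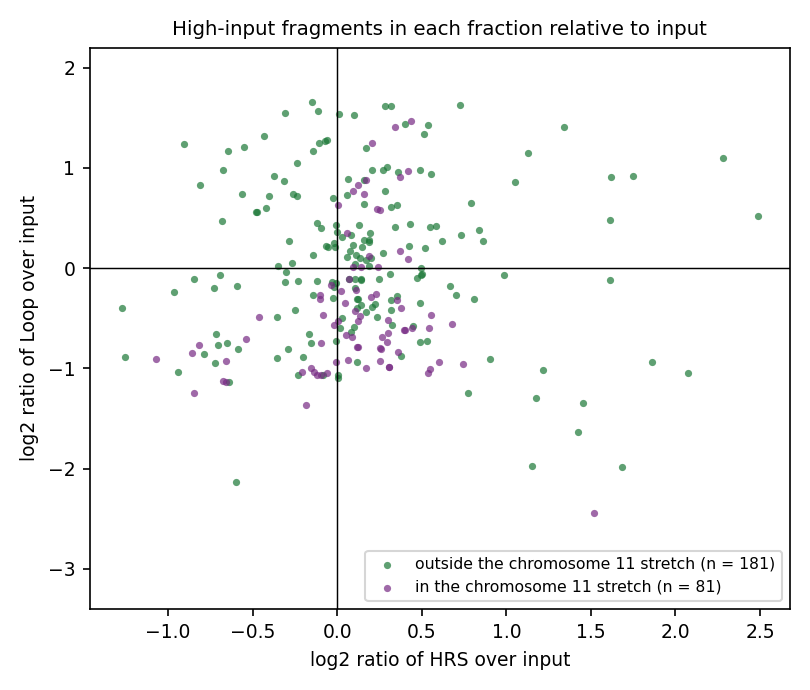
The log2 ratio of Loop over input (vertical) against the log2 ratio of HRS over input (horizontal) for the 262 fragments, from mean CPM with 0.05 CPM added, with the 81 fragments of the chromosome 11 stretch apart from the other 181. On library totals, the stretch has medians of 0.14 for HRS and -0.60 for Loop, and the 181 others have medians of 0.11 and 0.10.

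The 18 fragments that reached 2-fold in HRS included the 4 of the chromosome 17 group, the fragments of chromosomes 15 and 18 above, and chr4:3017173-3019382 (2209 bp), which lies near the start of the assembled chromosome. That fragment of chromosome 4 had 23.9, 19.4 and 25.1 CPM in HRS, 9.84, 9.74 and 10.6 CPM in Loop and 4.26, 4.74 and 4.96 CPM in input. It was 4.9-fold over input in HRS and 2.16-fold in Loop, and HRS exceeded Loop by 0.96 ± 0.26 on the log2 scale (SE, edgeR adjusted p 0.00365), a call that was lost with length corrected (adjusted p 0.502). It was 1 of 3 fragments at 2-fold or more in both fractions, with chr3:96116368-96116447 (79 bp, 2.56-fold in HRS and 2.69-fold in Loop) and chr7:16851545-16851646 (2.2-fold in HRS and 2.24-fold in Loop). The other early fragments were mixed: chr9:3258525-3258874 averaged 14.1 ± 2.94 CPM in HRS, 2.97 ± 0.386 CPM in Loop and 6.05 ± 0.778 CPM in input, while chr17:3076784-3077657 averaged 8.76 ± 2.07 CPM in HRS, 5.3 ± 1.3 CPM in Loop and 8.8 ± 1.17 CPM in input (SD, n = 3 each). At the other end, chr5:26332465-26333547 (1082 bp) had the lowest ratio of HRS to input, with 1.96, 1.73 and 1.25 CPM in HRS, 3.08 ± 0.476 CPM in Loop (SD, n = 3) and 3.83, 3.8 and 4.56 CPM in input. One fragment of 3054 bp, chr4:23022400-23025454, rested on HRS replicate 2, with 1.46, 6.27 and 0.487 CPM in HRS, 1.32, 1.08 and 0.341 CPM in Loop and 2.85, 4.63 and 5.05 CPM in input.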

How the data were processed

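The authors deposited, for each of the 9 libraries, whole-number tag counts per StyI fragment. Per the labels' protocols the tags are MmeI-cut ends of captured StyI fragments. The submitters' processing notes name CASAVA 1.8.2 and mm9. How tags were aligned, how tags with several places were counted and from which base coordinates run is not given in the sources used here. Repeat tables were not used. Chromosome 1 to 19 fragments were kept, and the end interval of every chromosome was left out of the fragments but kept in the library total.

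CPM divides a count by its library total. Ratios to input are log2 of mean CPM with 0.05 CPM added, and single folds are ratios of means. HRS was compared with Loop in edgeR 4.0.16 in R 4.3.3 (glmQLFit, glmQLFTest, TMM, filterByExpr with minimum count 10, Benjamini-Hochberg adjustment over all fragments tested). SE is the log2 ratio over the square root of F. The length correction used 20 length classes as an offset. The main fit was run on simulated counts, with changes at fragments of mean count 100 or more. It recovered 0% of 1.5-fold, 5.97% of 2-fold and 93.9% of 4-fold changes, with 3 false calls. A missing call is therefore no sign of equal levels. The simulation changed 67, 67 and 66 of 1744841 fragments, where 22.8% were called in the data, so these recoveries need not hold there.

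Fragments named are the 10 of highest input, the 10 called with the largest ratio in each direction (1 per group, the same sign in 3 replicate-numbered pairs), the groups of 2 or more, and the 3 nearest the limit on each side. The first 2 Mb and inputs of widest spread, and fragments of extreme ratio to input, were named after their values were seen. The fragments and lists were chosen with earlier results of these data known.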

Additional observations from a re-analysis of the deposited data

How the results depend on the processing

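Counts higher in HRS and in Loop (53 and 58) and the median log2 ratio of HRS over Loop (-0.04) moved most with scaling, length, replicate 3 and the limit. Library totals gave 83 in HRS and a median of 0.19, where the median over all fragments tested moved from 0.02 to 0.24. The length correction gave 34 and 32. Leaving out both libraries of replicate 3 gave 21, 33 and a median of 0.16, and leaving out 1 library at a time 23 to 51, 32 to 73 and medians of -0.18 to 0.29. The medians over all fragments in those fits were 0.07 and -0.02 to 0.08. An adjusted p of 0.01 gave 31 in HRS. A limit of 2 CPM gave 146 in Loop and a median of -0.19, and 5 CPM gave 24 in Loop and a median of 0.28. Settings chosen after seeing the data gave 27 in HRS outside the chromosome 11 stretch and 26 outside chromosomes 8 and 11. DESeq2 1.42.0 gave 58 and 54. The Loop over input median was 0.30 with TMM, which moved the median over all fragments from -0.37 to -0.02, 0.10 with the ratio of each length class divided out, and -0.35 to -0.01 with 1 library left out. For HRS over input leaving out 1 library gave 0.02 to 0.21, and TMM gave 0.24, with 0.05 over all fragments.

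The limits of 2 and 5 CPM gave 562 and 135 fragments in 378 and 61 groups, with 229 fragments in groups of 2 or more at 2 CPM. These held 0.426% and 0.3% of HRS, 0.344% and 0.204% of Loop and 0.308% and 0.191% of input counts. A limit of 3 CPM in each input held 0.222% of input counts. Leaving out 1 input gave 259 to 272 fragments.

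With the replicate number as a block 69 fragments were higher in HRS and 66 in Loop, against 144012 and 274998 of all 1744841 tested. With length corrected as well these were 37 and 39, against 82325 and 32853. The block also called the fragments at 39983696 on chromosome 17 (adjusted p 0.00164), 74641749 on chromosome 3 (0.0182) and 38714825 on chromosome 9 (0.0457). Same-numbered libraries deviated together at correlations of 0.06, 0.10 and 0.14 over the fragments tested, 0.009, 0.34 and 0.48 over the 262, and 0.16, 0.11 and 0.23 over 10 kb bins. All 3 values exceed 0.1 only in bins, and the unit tested here is the fragment, so the numbers were not taken as pairs. HRS replicate 2 and Loop replicate 1 correlated at 0.06 over the fragments tested, 0.50 over the 262 and 0.12 over 10 kb bins. Over the 262 this was higher than for any same-numbered pair.

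Directions turned at the chromosome 9 fragments. At 38714825 the log2 ratio was -0.36 with length corrected and -0.24 with the block as well. At 39905090 (-0.02) it was 0.22 on library totals, 0.74 with length corrected, 0.079 with the block, 0.75 with both, 0.38 without replicate 3 and -0.32 to 0.53 with 1 library left out. The cause was not tested.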
